A study of Mus musculus with 12 samples.

Results

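The PYHIN genes, also called the Ifi200 family, form a cluster on mouse chromosome 1. Here 9 of them were described across sorted invariant NKT cells of the thymus and liver: Ifi203, Ifi204, Ifi213, Ifi206, Ifi208, Ifi209, Ifi214, Mndal and Aim2. These 9 genes were taken out of 14004 genes in the expression table, and all 9 passed the filter on low values, as did 13058 genes in all. The family was selected on measured values of these data, because Ifi203, Ifi204 and Ifi213 were lower in cells with a conditional knockout of Ets1. The comparison of knockout with control cells is therefore given for the members as a description, with no test, and only the comparison of liver with thymus was tested for them.

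PYHIN proteins typically, though not always, pair a pyrin domain, which assembles proteins into signalling complexes, with a HIN domain that binds double-stranded DNA. Aim2 is the best known: DNA in the cytosol makes it assemble with the adaptor Pycard (ASC) and caspase-1 into an inflammasome, which releases interleukin-1 family cytokines and opens gasdermin D pores. In the mouse the Ifi200 genes have expanded into many close copies, and several are induced by interferon. Ifi204 of the mouse has been linked to the sensing of DNA through STING, and is often set beside human IFI16. Invariant NKT cells are T cells with a restricted receptor that recognise lipids on CD1d. The iNKT1 subset depends on the transcription factor T-bet, encoded by Tbx21, and makes interferon gamma.

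RNA was sequenced from CD1d-tetramer+ YFP+ iNKT1 cells of 4 groups with 3 libraries each. The cKO cells had the genotype Tbx21Cre Ets1F/F Rosa26-YFP+, and the control cells Tbx21Cre Rosa26-YFP+, so that both carried the Cre and the reporter. Cre was driven by Tbx21, and so Ets1 could be lost only in cells that had expressed Tbx21. The sources used here give neither the age of the mice nor whether the libraries of a group came from separate mice, and p-values therefore measure the spread between these libraries, which may be technical. Ets1, the targeted gene, had values of 11817, 7069 and 5788 in cKO thymus, against 23692, 28051 and 19493 in control thymus. In cKO liver it had 3594, 4425 and 5787, against 18773, 18528 and 15910 in control liver. The log2 fold change was -1.58 ± 0.27 (SE) in thymus and -1.97 ± 0.27 in liver (limma adjusted p = 0.0095 and 0.0012). Every cKO library lay below every control library, although reads remained in all of them. Which exons are deleted is not stated, and a value per gene can hold reads of exons outside the deleted part. The 10 fixed iNKT1 markers were all in the table. Their summed value was 114000 to 138000 in cKO thymus, against 105000 to 141000 in control thymus. In the liver it was 102000 to 138000 in cKO cells, below the 149000 to 160000 of control cells. Il2rb and Cd3e were the largest parts of the sum. Single markers could spread more widely over the 12 libraries, as did Ifng (24.3 to 5401) and Tbx21 (1386 to 6832). In the liver every cKO library lay above every control library for Ifng (4300 to 5401 against 1282 to 2271). Tbx21 did so too (4267 to 6321 against 2321 to 3513). Xcl1 went the other way there (494 to 999 against 3230 to 4420). So did Cd44 (5687 to 6856 against 13280 to 21030) and Il2rb (38770 to 51430 against 61550 to 71230). The other markers overlapped in the liver. In the thymus only Il2rb was apart, higher in cKO (50260 to 58360 against 36380 to 40800).

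The deposited values behave as read counts adjusted to a common library size, which was inferred from the values since no label states it. In 10 libraries there were 18.5 to 43.4 M recovered reads, whereas cKO liver 2 had 3.21 M and control liver 3 had 3.87 M. A single read was worth 6.66 and 6.06 units of value in these 2 libraries, and 0.615 to 1.25 in the others. Control thymus 1 and 2 also stood apart, with 3528 and 2824 genes without a read, against 966 to 2223 in the other 10 libraries. In a bulk measurement, fewer cells of a type and less RNA per cell cannot be told apart.

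The members lie within 592 kb, at chr1:173350879-173942672 (GRCm38), in the order Aim2, Ifi206, Ifi214, Ifi213, Ifi209, Ifi208, Ifi204, Mndal and Ifi203. All 9 are annotated as protein coding, and the table gives 1 value per gene. Aim2, Ifi209 and Ifi208 are on the plus strand and the other 6 on the minus strand. Apart from Aim2 they are copies that share part of their exon sequence. Of the 50-base stretches of their exons, the share found in another gene was 0.742% for Aim2, 12.4% for Ifi203, 33.7% for Ifi209, and between these last 2 for the other 6 members. The closest pairs were Ifi209 with Ifi214, which shared 33.4% of the stretches of Ifi209, and Ifi208 with Ifi213, which shared 18.1% of those of Ifi208. Mndal overlaps Ifi203 and Ifi211 on the same strand. Ifi211, which is not in the expression table, shared 14.8% of the stretches of Ifi204 and 7.96% of those of Mndal. The sources used here state neither how reads that fit several genes were counted nor whether strand was used, which leaves the division of reads among these copies uncertain.

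The promoters of the members were searched for shared sequence. RefSeq promoters (GRCm38.p6, 250 bases before to 50 after a start site) were on hand for 8 of the 9 members, with 2 start sites each for Ifi203 and Mndal; Ifi204 had no entry. The longest run of letters that the most of these members had in common was AAATCGAAAG, found in 7 of the 8 members and, with both strands searched and the members counted, in 0.0365% of 32851 promoters. Because it came from a search of these same members, that share is no test of it. All members but Aim2 are copies, alike to a varying degree, so their matches to any sequence named here are not independent of each other. In 6 of the 7 it follows a G, which gives GAAA, 2 bases and GAAA again, a pattern of interferon-responsive elements that was in 3.44% of promoters. The Ets-type sequence ACAGGAA was in 7 of the 8 members and in 8.67% of promoters, and 0.0213% of promoters held both ACAGGAA and AAATCGAAAG. The other Ets-type sequence searched, CCGGAA, was in Aim2 alone among the members and in 14.9% of promoters. In the stretches of 89 bases below, written in the direction of transcription, capitals mark ACAGGAA and AAATCGAAAG, which do not overlap.
Ifi203: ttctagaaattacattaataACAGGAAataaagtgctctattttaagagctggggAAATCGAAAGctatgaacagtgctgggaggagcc
Mndal: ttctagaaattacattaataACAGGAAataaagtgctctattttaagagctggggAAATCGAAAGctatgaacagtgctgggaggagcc
Ifi213: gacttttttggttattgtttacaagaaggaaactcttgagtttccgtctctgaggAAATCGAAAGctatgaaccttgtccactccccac
Ifi208: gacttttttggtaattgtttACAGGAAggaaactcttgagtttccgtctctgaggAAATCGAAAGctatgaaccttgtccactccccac
Ifi206: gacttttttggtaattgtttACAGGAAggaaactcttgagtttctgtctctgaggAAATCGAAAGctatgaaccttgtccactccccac
Ifi214: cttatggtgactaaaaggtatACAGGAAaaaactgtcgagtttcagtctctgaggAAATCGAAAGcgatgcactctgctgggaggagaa
Ifi209: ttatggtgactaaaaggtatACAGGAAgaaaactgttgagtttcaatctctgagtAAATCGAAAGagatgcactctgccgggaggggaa

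These stretches lie on chromosome 1, on the minus strand at chr1:173942493-173942581 for Ifi203, chr1:173880189-173880277 for Mndal, chr1:173599311-173599399 for Ifi213, chr1:173491324-173491412 for Ifi206 and chr1:173536002-173536090 for Ifi214. Those of Ifi208 and Ifi209 are on the plus strand at chr1:173673553-173673641 and chr1:173630726-173630814. Ifi203 and Mndal, each shown for 1 of their 2 start sites, were identical over all 89 bases. Ifi208 matched Ifi206 at 88 bases and Ifi213 at 87. Ifi209 matched Ifi214 at 63 bases. Between these sets of genes the matches were fewer, at 46 to 56 bases counted without gaps. ACAGGAA began 35 bases before AAATCGAAAG in Ifi203, Mndal, Ifi206, Ifi208 and Ifi209, and 34 bases before it in Ifi214. Aim2 had ACAGGAA but not AAATCGAAAG, and Ifi213 had AAATCGAAAG but not ACAGGAA. A member was counted as holding a sequence if any of its start sites held it, whereas the shares above are per promoter. These are matches of letters, and no binding was measured. Ifi213, Ifi208 and Ifi206, whose stretches matched each other at 86 to 88 of 89 bases, had log2 fold changes of -2.77, -2.31 and -0.52 in cKO against control thymus, and of -2.81, -2.54 and -1.14 in cKO against control liver, as described next.

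In cKO cells, 9 of 9 members had negative log2 fold changes in the thymus and 9 of 9 in the liver. In the thymus the median over the members was -1.71, beside 0.24 over all tested genes, and the members ranged from -8.10 to -0.18. In the liver the median was -1.25, beside 0.02 over all tested genes, with a range of -2.81 to -0.06. In the thymus 7 members had every cKO library below every control library, a pattern found for 6.89% of all tested genes, and 7 had it in the liver, where 8.66% of tested genes had it. Because these contrasts chose the family, nothing is read from those counts. Ifi203, Ifi204 and Ifi213 are the genes that the choice rests on. The summed value of the members was 18697 to 23988 in cKO thymus, against 49685 to 55974 in control thymus. In cKO liver it was 17799 to 20136, against 40992 to 46815 in control liver. The 9 genes thus made up 0.0746% to 0.0985% of each cKO library, and 0.167% to 0.214% of each control library.

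**Figure D1:**
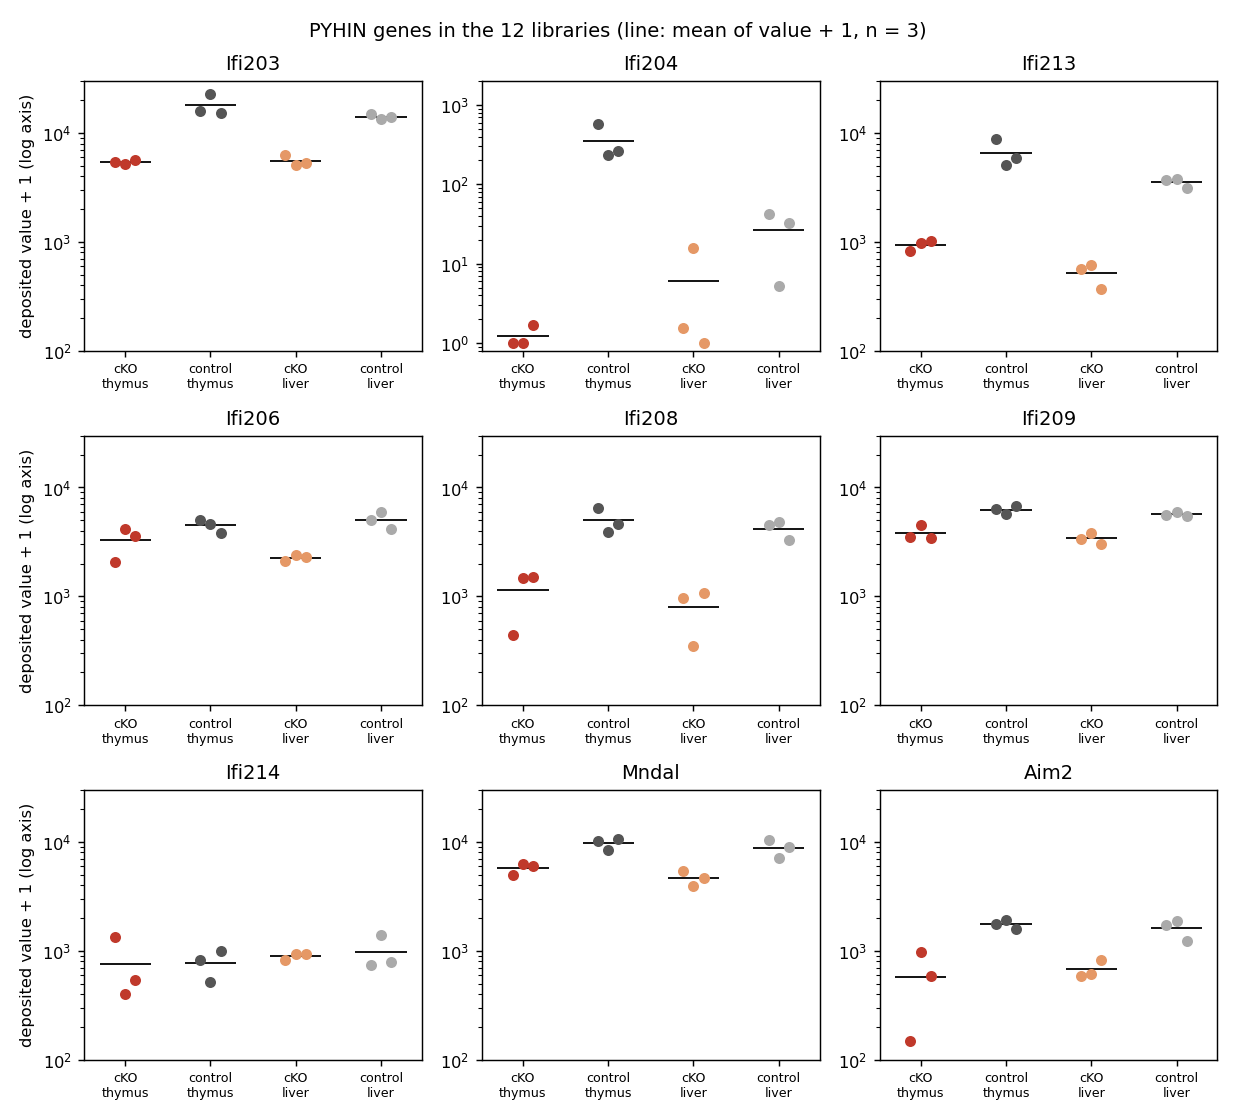
Deposited value plus 1 of each PYHIN gene (vertical log axis, scaled read counts; the axis of Ifi204 has its own range) in the 4 groups, with 1 point per library and a line at the mean of 3 libraries. The points of cKO and control cells are apart in both tissues for Ifi203, Ifi213, Ifi208, Ifi209, Mndal and Aim2, overlap in both for Ifi214, and Ifi204 is at 0 to 1 read in cKO thymus.

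Ifi204, the member linked to DNA sensing through STING in the mouse, had 0, 0 and 1 read in cKO thymus, against 510, 200 and 210 reads in control thymus. Its counts in cKO liver were 1, 2 and 0 reads, against 48, 5 and 5 in control liver. Control thymus cells were thus the main place where the gene was read, and the thymus groups did not overlap. On the value scale the liver groups did overlap, since the 2 reads of cKO liver 2, a library of low depth, are worth 14.6 units and the 5 reads of control liver 2 only 4.26. The share of reads in cKO cells was 0.0443 times that in control cells in the liver (95% interval 0.00887 to 0.136, which covers counting error only, as do all such intervals here). The fitted log2 fold changes were -8.10 ± 1.70 in thymus and -2.75 ± 1.70 in liver. With so few reads their size depends on the pseudocount, and a pseudocount of 10 gave -5.04 in thymus and -1.19 in liver. Leaving out 1 library gave -3.96 (without cKO liver 2) to -1.98 (without cKO liver 3) in liver.

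Aim2, the inflammasome sensor, had values of 147, 984 and 586 in cKO thymus, against 1758, 1915 and 1578 in control thymus. The cKO liver libraries had 584, 614 and 827, against 1733, 1871 and 1236 in control liver. The groups did not overlap in either tissue, and cKO thymus 1 was the lowest of the 12 libraries. Its log2 fold change was -1.99 ± 0.62 in thymus and -1.25 ± 0.62 in liver. Without cKO thymus 1 the thymus value was -1.2. Aim2 shares almost none of its exon sequence with the other members, so the copies bear little on its counts, although it overlaps Cadm3 on the other strand.

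Ifi203, an interferon-inducible member, had 5413, 5222 and 5592 in cKO thymus, against 16014, 23016 and 15154 in control thymus. In cKO liver it had 6330, 5085 and 5290, against 14988, 13442 and 13930 in control liver. The 6 cKO libraries lay close together, and all were far below the 6 control libraries. The log2 fold change was -1.71 ± 0.23 in thymus and -1.35 ± 0.23 in liver, or 3.28-fold and 2.54-fold lower. Mndal, named for its likeness to the human myeloid nuclear differentiation antigen, moved less. It had 4982, 6231 and 6033 in cKO thymus, against 10269, 8447 and 10579 in control thymus. Its values in cKO liver were 5391, 3959 and 4712, against 10503, 7119 and 8945 in control liver. Its groups did not overlap either, with log2 fold changes of -0.76 ± 0.26 in thymus and -0.91 ± 0.26 in liver.

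Ifi213 had values of 820, 972 and 1015 in cKO thymus, against 8744, 5041 and 5850 in control thymus. The cKO liver libraries had 558, 614 and 367, against 3663, 3799 and 3107 in control liver. The fold change was almost the same in both tissues, at -2.77 ± 0.40 in thymus and -2.81 ± 0.40 in liver on the log2 scale, or 6.82-fold and 6.99-fold lower. Its close copy Ifi208 had 436, 1469 and 1510 in cKO thymus, against 6458, 3926 and 4659 in control thymus. In cKO liver Ifi208 had 958, 348 and 1077, against 4489, 4771 and 3319 in control liver. Ifi208 spread more than Ifi213 among the cKO libraries, with cKO thymus 1 and cKO liver 2 the lowest, and did not overlap between groups. Its log2 fold changes were -2.31 ± 0.53 in thymus (-1.72 without cKO thymus 1) and -2.54 ± 0.53 in liver.

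Ifi206, Ifi209 and Ifi214 had the fold changes nearest to 0 in the thymus. Ifi206 had 2058, 4168 and 3549 in cKO thymus, against 5027, 4615 and 3837 in control thymus, where the groups overlapped (log2 fold change -0.52 ± 0.34, and -0.22 without cKO thymus 1). In cKO liver it had 2109, 2420 and 2277, against 5048, 5980 and 4149 in control liver, with no overlap (-1.14 ± 0.34). Ifi209 had 3516, 4543 and 3428 in cKO thymus, against 6317, 5681 and 6776 in control thymus. In cKO liver Ifi209 had 3383, 3812 and 3030, against 5610, 6001 and 5493 in control liver. Its groups were apart in both tissues, but by less than 2-fold, at -0.72 ± 0.28 in thymus and -0.75 ± 0.28 in liver. Ifi214 had 1325, 399 and 533 in cKO thymus, against 816, 513 and 988 in control thymus. In cKO liver Ifi214 had 822, 933 and 928, against 739, 1408 and 782 in control liver. It overlapped in both tissues, at -0.18 ± 0.60 and -0.06 ± 0.60. Its sign turned in the thymus without cKO thymus 2 (0.17) or control thymus 3 (0.02), and in the liver without control liver 2 (0.23).

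**Figure D2:**
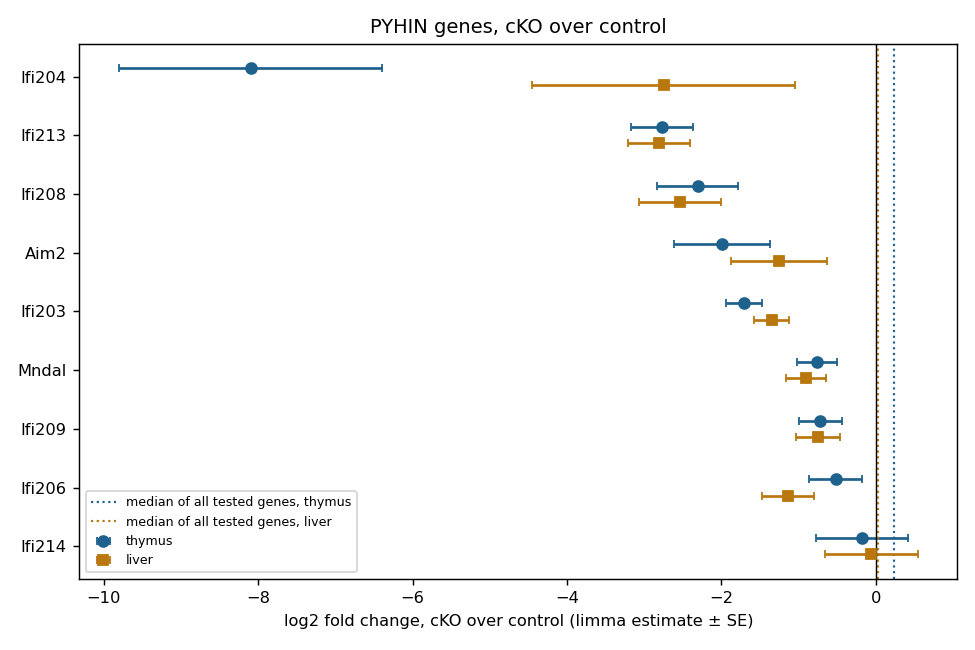
Log2 fold change of each PYHIN gene, cKO over control (horizontal axis), in thymus (circles) and liver (squares), as limma estimates with bars of 1 SE from 3 libraries a group; dotted lines mark the median of all tested genes. All 18 estimates lie below 0, with Ifi214 nearest to it in both tissues and Ifi204 widest in error.

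The difference between the tissues' fold changes, liver minus thymus on the log2 scale, was 5.35 ± 2.41 for Ifi204, and between -0.63 and 0.74 for the other 8 members. It is built from the contrasts that chose the family and was not tested. Along the chromosome the members with the larger fold changes were not all next to each other: Ifi209, at -0.72 in thymus, lies between Ifi213 and Ifi208, and Mndal lies between Ifi204 and Ifi203. Outside the family, Cadm3 was the one gene of the table within 500 kb of the members. It averaged 11.5 in cKO thymus and 1.29 in control thymus, and 83.0 in cKO liver and 0.267 in control liver. It did not pass the test in either tissue (limma adjusted p = 0.88 in thymus, log2 fold change 0.94 ± 1.94, and 0.63 in liver, 4.36 ± 1.94).

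Levels of different genes were compared as value per kb of exon. In cKO thymus Mndal was first (1580 ± 185, SD, n = 3 here and below), followed by Ifi209 (1080 ± 175), Ifi206 (1070 ± 355) and Ifi203 (807 ± 27.6). In control thymus Ifi203 (2690 ± 643) and Mndal (2690 ± 317) were highest, followed by Ifi209 (1760 ± 155) and Ifi206 (1470 ± 198). In both thymus groups Ifi209 and Ifi206 differed by less than the sum of their SDs, as did Ifi206 and Ifi203 in cKO thymus and Ifi203 and Mndal in control thymus. The next genes in cKO thymus were Ifi208 (217 ± 116), Aim2 (163 ± 120), Ifi213 (137 ± 15) and Ifi214 (92.8 ± 61.7), whose neighbours in the order were all within their spread. In control thymus Ifi213 (957 ± 285), Ifi208 (954 ± 248) and Aim2 (500 ± 48.1) came next, Ifi213 and Ifi208 within their spread, and Ifi204 (99.8 ± 52.8) and Ifi214 (95.3 ± 29.6) were last and within their spread. Ifi204 was last in cKO thymus, at 0.0648 ± 0.111.

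In the liver, Mndal was first in both genotypes. In cKO liver the order was Mndal (1290 ± 197), Ifi209 (961 ± 110), Ifi203 (830 ± 99.5) and Ifi206 (743 ± 50.9), then Aim2 (193 ± 37.8), Ifi208 (151 ± 74.4), Ifi214 (110 ± 7.74), Ifi213 (75.0 ± 19.0) and Ifi204 (1.42 ± 2.33). In control liver it was Mndal (2440 ± 467), Ifi203 (2110 ± 118), Ifi206 (1660 ± 300) and Ifi209 (1610 ± 74.9), then Ifi208 (797 ± 146), Ifi213 (515 ± 53.5), Aim2 (461 ± 95.4), Ifi214 (120 ± 46.2) and Ifi204 (7.25 ± 5.44). Within the sum of their SDs were, in cKO liver, the neighbours Ifi209, Ifi203 and Ifi206, and Aim2, Ifi208 and Ifi214. In control liver these were Mndal and Ifi203, Ifi206 and Ifi209, and Ifi213 and Aim2. Ifi213 stood above Ifi214 in control liver and below it in cKO liver, in both cases by more than the sum of their SDs.

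Ratios of 2 members within a library do not depend on how that library was scaled. Ifi213 over Ifi214, per kb of exon, was 0.734 to 2.89 in cKO thymus, against 7.02 to 12.7 in control thymus, and 0.468 to 0.805 in cKO liver, against 3.20 to 5.88 in control liver. Ifi213 over Ifi206 was 0.104 to 0.178 in cKO thymus, against 0.488 to 0.777 in control thymus, and 0.0719 to 0.118 in cKO liver, against 0.284 to 0.334 in control liver. Ifi208 over Ifi209 was 0.0837 to 0.297 in cKO thymus, against 0.464 to 0.690 in control thymus, and 0.0616 to 0.240 in cKO liver, against 0.408 to 0.540 in control liver. Ifi203 over Mndal was 0.453 to 0.588 in cKO thymus, against 0.775 to 1.47 in control thymus, and 0.607 to 0.695 in cKO liver, against 0.772 to 1.02 in control liver. These 4 ratios did not overlap between the genotypes in either tissue. They are 4 of 6 pairs computed. Of these 4, all but Ifi208 over Ifi209 hold Ifi203 or Ifi213, genes that the choice of the family rests on. All 4 compare the genotypes, as that choice did, so they are a description. Aim2 over Ifi206 was 0.0622 to 0.206 in cKO thymus, against 0.305 to 0.362 in control thymus, but overlapped in the liver, at 0.221 to 0.317 in cKO cells, against 0.260 to 0.299 in control cells. Ifi208 over Ifi213 overlapped in both tissues, at 0.692 to 1.97 in cKO thymus, against 0.961 to 1.04 in control thymus, and at 0.736 to 3.82 in cKO liver, against 1.39 to 1.63 in control liver.

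**Figure D3:**
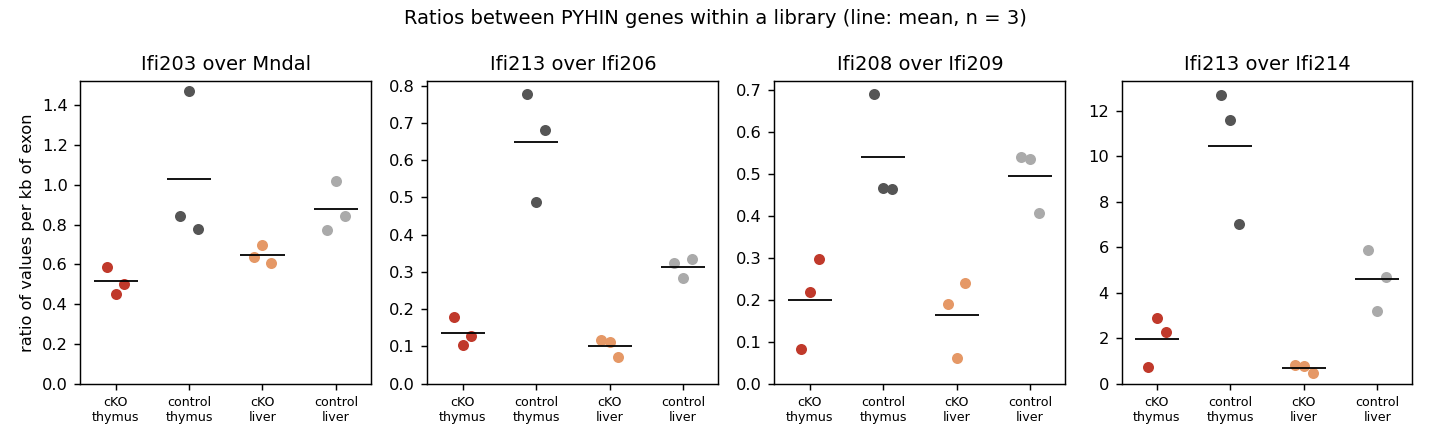
Ratio of values per kb of exon between pairs of PYHIN genes within a library (vertical linear axes from 0, each panel with its own range) in the 4 groups, with 1 point per library and a line at the mean of 3 libraries. In each of the 4 panels the cKO libraries lie below the control libraries of the same tissue; Ifi213 over Ifi214 is at 0.734 to 2.89 in cKO thymus against 7.02 to 12.7 in control thymus.

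The comparison of liver with thymus was not used to choose the family and was tested. It shares its libraries with the contrasts that chose the family, so it is not independent of that choice. No member passed the test in cKO or in control cells. In cKO cells, limma called 0 of 9 members, and 1 had an unadjusted p under 0.05. In control cells, limma called 0 of 9, and 2 had an unadjusted p under 0.05. The share of all tested genes at that cut was not computed. Counts at an unadjusted p under 0.05, here and below, are therefore only a description. Of all tested genes 0.222% were called in cKO cells and 0.605% in control cells. By edgeR 0 were called in each, with 1 and 1 at an unadjusted p under 0.05, where it called 0.138% of all tested genes in cKO cells and 0.375% in control cells. By DESeq2 0 were called in each, with 1 and 2 at an unadjusted p under 0.05, where it called 1.92% and 3.61% of all tested genes. The median log2 fold change of the members, liver over thymus, was -0.16 in cKO cells (0.09 over all tested genes) and -0.15 in control cells (0.28 over all tested genes).

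Ifi213 had the lowest estimate in cKO cells, and every liver library lay below every thymus library in both genotypes. Its log2 fold change, liver over thymus, was -0.89 ± 0.40 in cKO cells (95% interval -1.74 to -0.05, limma adjusted p = 0.61) and -0.86 ± 0.40 in control cells (-1.71 to -0.01, adjusted p = 0.39). Ifi204 had the lowest estimate in control cells, at -4.08 ± 1.70 (-7.64 to -0.51, limma adjusted p = 0.32). Its 58 reads in control liver against 920 in control thymus gave a ratio of read shares of 0.0711 (95% counting interval 0.0536 to 0.0927), and 48 of the 58 reads were in control liver 1. In cKO cells Ifi204 had 3 reads in liver and 1 in thymus, too few for a comparison. Ifi203 was lower in every control liver library than in every control thymus library (-0.33 ± 0.23, limma adjusted p = 0.59) but not so in cKO cells (0.04 ± 0.23, adjusted p = 1). Such a lack of overlap, in the direction of lower in liver, was found for 1 member in cKO cells and 3 in control cells, where 7.26% and 5.83% of all tested genes had it. The 3 in control cells, Ifi203, Ifi204 and Ifi213, are those that the choice of the family rests on, so nothing is read from that count. The other 6 members had estimates of -0.48 to 0.60 in cKO cells and -0.24 to 0.32 in control cells. For Mndal and Ifi209, with the tightest of these, the 95% intervals were -0.84 to 0.24 and -0.74 to 0.42 in cKO cells, and -0.70 to 0.39 and -0.71 to 0.45 in control cells.

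**Figure D4:**
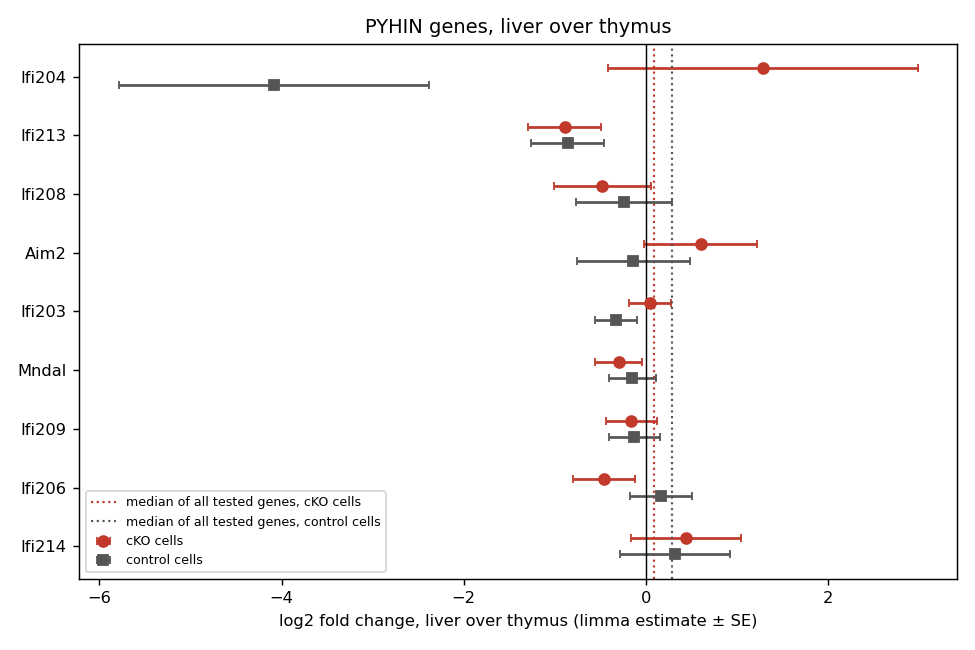
Log2 fold change of each PYHIN gene, liver over thymus (horizontal axis), in cKO cells (circles) and control cells (squares), as limma estimates with bars of 1 SE from 3 libraries a group; dotted lines mark the median of all tested genes. Ifi213 is below 0 by more than its SE in both genotypes (-0.89 and -0.86), Ifi204 is at -4.08 in control cells, and the other estimates lie between -0.48 and 1.28.

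Genes of the pathways around the family were taken from 4 fixed lists: the AIM2 inflammasome, cytosolic nucleic acid sensing, interferon receptors with their JAK, STAT and IRF factors, and type I interferon stimulated genes. Of 85 genes, 80 were in the table and 76 were tested. By limma 0 of the 76 were called in cKO against control thymus, and 0 in cKO against control liver, where 0.636% and 0.505% of all tested genes were called. At an unadjusted p under 0.05 there were 16 in the thymus (3 higher, 13 lower) and 9 in the liver (2 higher, 7 lower). No share of all tested genes at that cut was computed, so nothing is read from these counts. By edgeR 0 were called in each tissue (0.391% and 0.299% of all tested genes), with 15 and 9 at an unadjusted p under 0.05. By DESeq2 4 of the 76 were called in the thymus (Ifngr1, Ifih1, Ifi44 and Casp4) and 3 in the liver (Ifngr1, Ifi44 and Rtp4), where it called 4.62% and 2.07% of all tested genes, so the thymus share is near that of all genes. Of the 4 in the thymus, Ifi44 rests on cKO thymus 3, at 495, with the other 5 thymus libraries below 1, and Casp4 on control thymus 2, at 176, with the other 5 below 1. Ifih1 had 658, 1053 and 1489 in cKO thymus, against 1502, 3490 and 4361 in control thymus. In the liver Ifi44 had 0, 0.922 and 0 in cKO cells, against 38.3, 11.1 and 165 in control cells, and Rtp4 had 540, 354 and 394, against 1020, 1838 and 1356.

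The list of type I interferon stimulated genes, which encode antiviral effectors, had 18 of 26 negative log2 fold changes in the thymus and 18 of 26 in the liver. Its medians were -0.56 and -0.48, beside 0.24 and 0.02 over all tested genes. None passed the test, and 9 and 5 had an unadjusted p under 0.05, all of them lower, again without a share of all tested genes at that cut. Oas2, an activator of the RNase L pathway, is one of these: it had 0.00466, 55.1 and 79.5 in cKO thymus, against 2664, 117 and 773 in control thymus (log2 fold change -5.24 ± 1.98, limma adjusted p = 0.26). In liver it had 0, 115 and 0.836 in cKO cells, against 538, 1245 and 515 in control cells (-6.88 ± 1.98, adjusted p = 0.16). The groups of Oas2 did not overlap, with wide spread within each. The ubiquitin-like Isg15 had 23.6, 286 and 436 in cKO thymus, against 823, 1546 and 1638 in control thymus (-3.13 ± 0.96, limma adjusted p = 0.15), but 322, 527 and 282 in cKO liver, against 240, 274 and 612 in control liver. Oas2 and Isg15 were picked after their values were seen. The highest expressed of the list were Samd9l and Parp14, with log2 fold changes of -0.33 ± 0.24 and -0.72 ± 0.29 in thymus and 0.28 ± 0.24 and -0.50 ± 0.29 in liver.

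Interferon signalling genes had median log2 fold changes of 0.16 in thymus and -0.40 in liver over 20 tested genes. The kinase Jak1 was at 0.16 ± 0.21 in thymus and -0.04 ± 0.21 in liver. Ifngr1, a chain of the interferon gamma receptor, was picked after its values were seen. It had 13480, 18850 and 16750 in cKO thymus, against 4363, 7962 and 10130 in control thymus, and 29090, 20770 and 21150 in cKO liver, against 13970, 8621 and 7051 in control liver. Every cKO library lay above every control library of its tissue. The estimates of 1.2 ± 0.30 and 1.30 ± 0.30 missed the threshold (limma adjusted p = 0.082 in thymus and 0.058 in liver), although DESeq2 and quantile normalization called the gene in both tissues, and TMM rescaling and a pseudocount of 10 in the liver.

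Nucleic acid sensing genes had medians of 0 in thymus and -0.30 in liver over 20 tested genes. Samhd1, which breaks down nucleotides, had estimates of 0.75 ± 0.24 in thymus (limma adjusted p = 0.17) and 0.54 ± 0.24 in liver (adjusted p = 0.64), and the RNA sensor Ddx58 had 0.18 ± 0.29 and -0.44 ± 0.29. Inflammasome genes had medians of -0.44 and -0.22 over 10 tested genes. Casp8 was at -0.33 ± 0.28 and -0.17 ± 0.28, and Nek7, a partner of NLRP3, at 0.35 ± 0.33 and 0.02 ± 0.33. None of these passed the test.

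Between tissues, limma called 1 of the 76 pathway genes in control cells (0.605% of all tested genes) and 0 in cKO cells (0.222%). At an unadjusted p under 0.05 there were 15 and 7. The called gene was Casp1, the protease of the Aim2 inflammasome. It had 36.2, 114 and 96.4 in cKO liver, against 1.03, 0 and 0.689 in cKO thymus. In control liver it had 684, 501 and 343, and in control thymus no reads at all. Against a floor of 3 reads over the control thymus libraries it was at least 536-fold higher in control liver (limma adjusted p = 0.0088, higher in 3 of 3 libraries). In cKO cells it missed the threshold (adjusted p = 0.19), and by edgeR it was called in control cells too. The call was lost without control liver 2, without control thymus 1 and 2 together, without both libraries of low depth, and with the contrast's own groups alone. Between the tissues edgeR called 0 pathway genes in cKO cells (0.138% of all tested genes) and 1 in control cells (0.375%). DESeq2 called 6 in cKO cells (1.92% of all tested genes) and 6 in control cells (3.61%), Casp1 among both. Aim2 itself was at 0.60 ± 0.62 in cKO cells and -0.14 ± 0.62 in control cells in the same contrast. Its sign turned in cKO cells without cKO thymus 1 (-0.19), and in control cells in 4 of 22 alternatives.

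**Figure D5:**
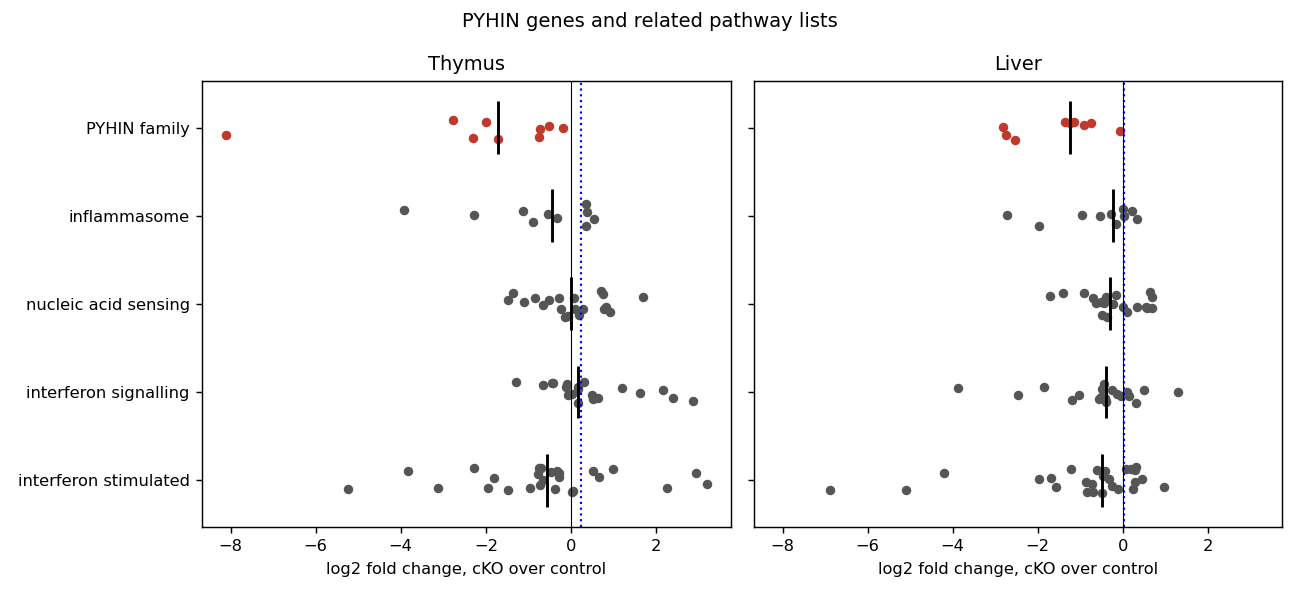
Log2 fold change, cKO over control (horizontal axis), of the 9 PYHIN genes (red) and of the tested genes of 4 pathway lists (grey) in thymus (left) and liver (right), with 1 point per gene, a black bar at the median of each row and a dotted line at the median of all tested genes. The PYHIN medians are -1.71 and -1.25. The nearest list, interferon stimulated genes, is at -0.56 and -0.48, and no gene of the 4 lists passed the test. These contrasts chose the PYHIN family, so nothing is read from its place among the rows.

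The genes whose profile over the 12 libraries was most like that of a member were ranked by the root mean square difference of centred log2(value + 1). For Ifi203 these were Trim34a (0.31), Zfp706 (0.32) and Glul (0.34), where the median gene was at 1.47. For Ifi213 they were Msra (0.52), Lpar6 (0.60) and Efhd2 (0.62), with the median gene at 1.98. For Ifi204 they were Tgds (1.91), Fcer1g (2.02) and Sspo (2.06), with the median gene at 3.62, so that no gene came close. In all, 10866 genes were compared. The 12 libraries share their groups, so such likeness holds the genotype difference that chose the family.

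Markers of other cells moved with genotype in part. Of the macrophage and Kupffer list, cells in which several PYHIN genes are known to be expressed, 7 of 15 markers were in the table. Their summed value was 169 to 328 in cKO thymus, against 10.6 to 315 in control thymus, and 805 to 1160 in cKO liver, against 36.8 to 1300 in control liver. Adgre1, C1qb and C1qc had no reads in the 6 thymus libraries. Itgam was the largest part of the sum in each cKO liver library, at 402 to 654. The B cell list (5 of 6 in the table) summed to 1520 to 5690 in cKO thymus, against 3160 to 5350 in control thymus, and to 1080 to 2080 in cKO liver, against 5470 to 8080 in control liver. Ighm made up nearly all of it. The NK cell list (7 of 7) summed to 2310 to 3490 in cKO thymus, against 8400 to 16200 in control thymus, and to 320 to 2220 in cKO liver, against 827 to 4110 in control liver. Klra9 and Fcer1g made up most of it in the thymus, where Ncr1 had no reads. The immature thymocyte list (6 of 8) summed to 2780 to 3980 in cKO thymus, against 412 to 1250 in control thymus, and to 5300 to 6720 in cKO liver, against 3870 to 5920 in control liver. Themis made up most of it in the cKO libraries. Of the neutrophil list 1 of 8 was in the table, Mmp9, at 0 to 1.43 in cKO thymus, against 0.0213 to 2.55 in control thymus, and at 0 to 1.16 in cKO liver, against 3030 to 3580 in control liver. Hepatocyte markers (4 of 6) summed to 0 to 430 in cKO thymus, against 0.0808 to 270 in control thymus, and to 719 to 1640 in cKO liver, against 1270 to 1710 in control liver. Erythroid markers (4 of 4) summed to 0 to 555 in cKO thymus, against 0.171 to 283 in control thymus, and to 3.39 to 448 in cKO liver, against 1.69 to 211 in control liver. Dendritic markers (6 of 8) summed to 2310 to 6960 in cKO thymus, against 163 to 902 in control thymus, and to 1620 to 3410 in cKO liver, against 902 to 2470 in control liver. Itgax made up most of it in cKO thymus (2189 to 6035), where H2-Ab1 was at 0 to 3.09 and H2-Aa at 0 to 52.4. Endothelial markers (3 of 8) summed to 0.923 to 70.6 in cKO thymus, against 385 to 897 in control thymus, and to 1.71 to 97.2 in cKO liver, against 2870 to 3590 in control liver. Cd93 and Pecam1 made up most of it in the control libraries. The part of these cells in the lower PYHIN values was not tested.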

How the data were processed

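RNA of sorted iNKT1 cells was extracted with RNeasy mini kits and made into Nugen Ovation Ultralow libraries, per the labels' protocols. The submitters' processing notes name the mm10 build, HTSeq 0.6.1, STAR, DESeq2, TopHat2 2.1.0 and Trimmomatic 0.33, without role or order. The deposited table holds a signal per gene; how the authors made it is not stated, and from the values it is read counts adjusted to a common library size. Inverting a negative binomial adjustment (fitted dispersion 1.42) gave whole reads, within 0.1 read, for 94.2% of values, and reads recovered in this way served edgeR and DESeq2 only. Of 14004 gene IDs, 13363 (95.4%) matched a symbol.

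Genes (13058) that reached 10 in 3 or more libraries entered a fit on the log2(value + 1) scale by limma 3.58.1, run in R 4.3.3, with 1 mean for each of the 4 groups and trended variance. Benjamini-Hochberg adjustment ran over all tested genes, with a threshold of 0.05. Fold changes on this scale understate the change of low genes. edgeR 4.0.16, DESeq2 1.42.0, other scalings, filters and left-out libraries were tried as alternatives.

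The members and lists were chosen with earlier results of these data known. Named in the text are all members, Ets1, the called genes of each pathway list and its 2 with the highest mean, the 3 profiles most like Ifi203, Ifi204 and Ifi213, and neighbours within 500 kb; exceptions are marked, and 1 gene that the rule names is not reported here. Gene positions come from the GENCODE annotation of GRCm38 and promoters from RefSeq. Ifi202b, Ifi205 and Ifi211 had no row in the expression table and were not analysed here.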

Additional observations from a re-analysis of the deposited data

How the results depend on the processing

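The median log2 fold change of the members in cKO against control thymus, -1.71 as reported, was -2.01 after TMM rescaling and -1.49 without control thymus 1 and 2, the libraries with the most genes at 0 reads; leaving out 1 library gave -1.83 to -1.20. In the liver, leaving out 1 library gave -1.36 to -1.13 around -1.25. Under 22 alternatives 8 members kept negative estimates in both tissues, all but Ifi214, and 0 members were called between tissues. TMM rescaling moved the median of all genes in the thymus to -0.03, against 0.24 as deposited, and the split of all called genes to 27 higher and 90 lower, against 41 and 42; between control tissues it moved 44 higher and 35 lower to 37 and 73.

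Pathway genes called in the liver, 0 as reported, were 1 with a pseudocount of 10, 1 with TMM, 2 with quantile normalization, 3 with DESeq2, 2 with the contrast's groups alone, 1 without control thymus 1 and 2, and 0 to 1 without single libraries (1 without control thymus 1, 2 or 3 or control liver 1). In the thymus they were 1 with TMM, 1 with quantile normalization, 4 with DESeq2, and 0 to 1 without single libraries (1 without cKO thymus 3 or control thymus 3). Ifngr1 was among the calls in each of these settings, other than the thymus calls with TMM and without cKO thymus 3, which were Oas3. The cause was not tested.

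Over all genes the count of calls in thymus, liver, control tissues and cKO tissues was 83, 66, 79 and 29 as reported. It was 129, 104, 101 and 54 with a pseudocount of 10, 116, 191, 91 and 60 with quantile normalization, 51, 39, 49 and 18 by edgeR, and 603, 270, 472 and 251 by DESeq2. With the contrast's groups alone it was 0, 292, 12 and 57, without both libraries of low depth 25, 9, 20 and 8, and without control thymus 1 and 2 it was 4, 216, 29 and 73. Leaving out 1 library gave 21 to 542, 19 to 126, 26 to 395 and 3 to 43, and control thymus 3 gave the 542 and 395. Correlations of same-numbered deviations were -0.10 to 0.08, which cannot settle whether the replicate numbers pair the libraries. Between cKO and control liver they were 0.07 to 0.08, above the highest for other numbers (-0.04 to -0.01). A replicate block gave 81, 71, 68 and 34 calls, the same medians of -1.71 and -1.25, and 0 members called between tissues; 0 pathway genes were called between genotypes. The depth of cKO liver 2 and control liver 3 limits Ifi204, since 1 read there is worth over 6 units.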

Other observations

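Of the other PYHIN genes, Ifi207 and Ifi203-ps were in the table, and both were looked at after their values were seen. Ifi203-ps, annotated as an unprocessed pseudogene between Ifi204 and Mndal, had 2, 1 and 7 reads in cKO thymus, against 36, 47 and 46 reads in control thymus. In the liver it had 0 to 3 reads in each library. The cKO share of reads in the thymus was 0.0667 times that of control cells (95% counting interval 0.0313 to 0.127), and the control liver share was 0.0262 times that of control thymus (0.00534 to 0.0784). Neither difference passed limma's test, with log2 fold changes of -3.95 ± 1.43 between genotypes in thymus (adjusted p = 0.24) and -4.81 ± 1.43 between control tissues (adjusted p = 0.16). The reads lay in 3 of 3 control thymus libraries, as those of Ifi204 did. Of its 50-base exon stretches 24.3% are also in Ifi203, which had 35191 reads in control liver and 46279 in control thymus, where Ifi203-ps had 3 and 129. Ifi207 had values of 0.00461, 0 and 0 in cKO thymus, against 0.0210, 622 and 0.0440 in control thymus, so control thymus 2 held nearly all of its reads. In the liver it had 0, 0.943 and 43.0 in cKO cells, against 65.2, 0.831 and 0.846 in control cells. It shares 7.29% of its exon stretches with other genes.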
